A study of Danio rerio with 93 samples.

Results

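Fatty acid binding proteins were followed across embryos exposed to 5 smoke dyes. The group comprised every row of the gene count table that carried the symbol of 1 of 10 named zebrafish genes: fabp1a, fabp1b.1, fabp2, fabp3, fabp4a, fabp4b, fabp7a, fabp7b, fabp10a and fabp11a. These names gave 9 of the 19913 genes in the table. The annotation used here lists fabp11a as another name of fabp4a (ENSDARG00000017299), so that both names fall on a single row. Symbol FABP1 belongs to 2 Ensembl genes and FABP7 to another 2, and which of them is the a or the b paralogue is not given. They are therefore written with the last digits of their identifiers, as FABP1-19357 (ENSDARG00000019357), FABP1-59227 (ENSDARG00000059227), FABP7-07697 (ENSDARG00000007697) and FABP7-34650 (ENSDARG00000034650). The others were fabp2 (ENSDARG00000006427), fabp3 (ENSDARG00000023290), fabp4b (ENSDARG00000002311) and fabp10a (ENSDARG00000038439).

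The study exposed single embryos of the 5D zebrafish strain (SPF 5-D in the labels) to a dye in the wells of plates from 6 h post fertilization (hpf) and sequenced poly-A RNA of each whole embryo at 48 hpf. Of 93 embryos, 75 were exposed and 18 were controls in 0.64% DMSO, the solvent of the dyes. The methods state that dyed wells were also normalized with 0.64% DMSO, and that chorions were removed before exposure. They describe no Solvent Violet 47 exposure. From the highest concentration down, Solvent Violet 47 was tested at 40, 31.5, 23, 17.5 and 12 μM, Solvent Yellow 33 at 13.5, 12, 10.5, 9 and 7.5 μM, Solvent Red 169 at 50, 35.6, 11.2, 5 and 1 μM, Disperse Red 9 at 55, 45, 35, 25 and 10 μM, and Disperse Blue 14 at 314, 261.5, 209, 171 and 133 μM. Each treatment group held 3 embryos and each dye had its own control of 4 embryos, except for Solvent Violet 47, whose control held 2. The labels name no transgene or mutation, and do not say whether the embryos of a group came from separate clutches, so p-values measure the spread between these embryos. Each dye was compared with its own control, and the dyes were not compared with each other.

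Fatty acid binding proteins are small cytoplasmic proteins that hold a long-chain fatty acid or a similar hydrophobic ligand inside a barrel of β-strands. They carry it between membranes, to mitochondria and peroxisomes, to lipid droplets, and to nuclear receptors such as the PPARs. Members are named for the tissues in which they abound: FABP1 for the liver, FABP2 for the intestine, FABP3 for heart and muscle, FABP4 for fat cells and macrophages of mammals, and FABP7 for the brain, where it marks radial glia. The fabp10a gene of fish encodes the liver basic form and is widely used as a marker of hepatocytes. In an embryo of this age, fatty acids still come from the yolk.

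Levels are given as CPM, the count of a gene relative to the total of its embryo, after scaling by the trimmed mean of M-values (TMM) within each dye. They are not divided by gene length, so levels are compared between embryos and not between genes. A member was called changed where edgeR's quasi-likelihood F test gave an adjusted p (Benjamini-Hochberg, over all genes tested) under 0.05 and the fold change exceeded 1.5. Fold changes are log2 values of exposed embryos relative to the control of their dye, with the standard error (SE), unless another reference is named. In whole embryos, fewer cells of a type and less RNA per cell cannot be told apart.

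Totals ranged from 25902442 to 48188027 counts in controls and from 9171265 to 41701852 in exposed embryos. The lowest total was that of 12 μM Solvent Yellow 33 embryo 3, and the next was 22423359. That embryo also stood apart over all genes, with a correlation of 0.666 with the rest of its group where the median of 93 embryos was 0.983, and with a TMM factor of 0.444 where the next lowest was 0.827. The methods state that a 12 μM embryo was removed but do not name it, so all labelled embryos were used. Values without embryo 3 are given beside member results that rest on it. They were not determined for shares of all genes or for gene and marker lists. Other low correlations were 0.915 and 0.921 in 25 μM Disperse Red 9 embryos 4 and 3, 0.933 in Disperse Blue 14 control 2 and 0.934 in Solvent Red 169 control 2.

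Of the 9 genes, 8 passed the filter on low counts in every dye. The exception was FABP1-19357, which had no more than 4 counts in any control and no more than 12 in any exposed embryo. It was at 0 in 11 of 18 controls and in 48 of 75 exposed embryos, and it was not tested. Only 1 control and 4 exposed embryos had more than 3 counts, the floor used here, so no fold change is given for it. Reads that fit more than 1 related gene were divided between them by a model. Levels of the FABP1 genes, of the pair of FABP7 genes and of fabp4a and fabp4b may therefore be less certain than the others. How many reads these genes shared was not measured.

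The main edgeR fit took all groups of a dye together, after the filter on low counts, and made no use of replicate numbers. Over the 25 comparisons of a treatment group with the control of its dye, it called fabp4b in 7, always downregulated. FABP7-07697 was called in 2, also downregulated, and FABP1-59227, fabp4a, fabp10a and fabp2 were called in 1 each. Of these calls against a control, only that of fabp2 was an upregulation. Neither fabp3 nor FABP7-34650 was called in any of the 25 by the main fit. Both were at an unadjusted p under 0.05 in some, 2 comparisons for fabp3 and 9 for FABP7-34650. The comparisons of a dye share its control embryos and are not independent of each other.

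**Figure D1:**
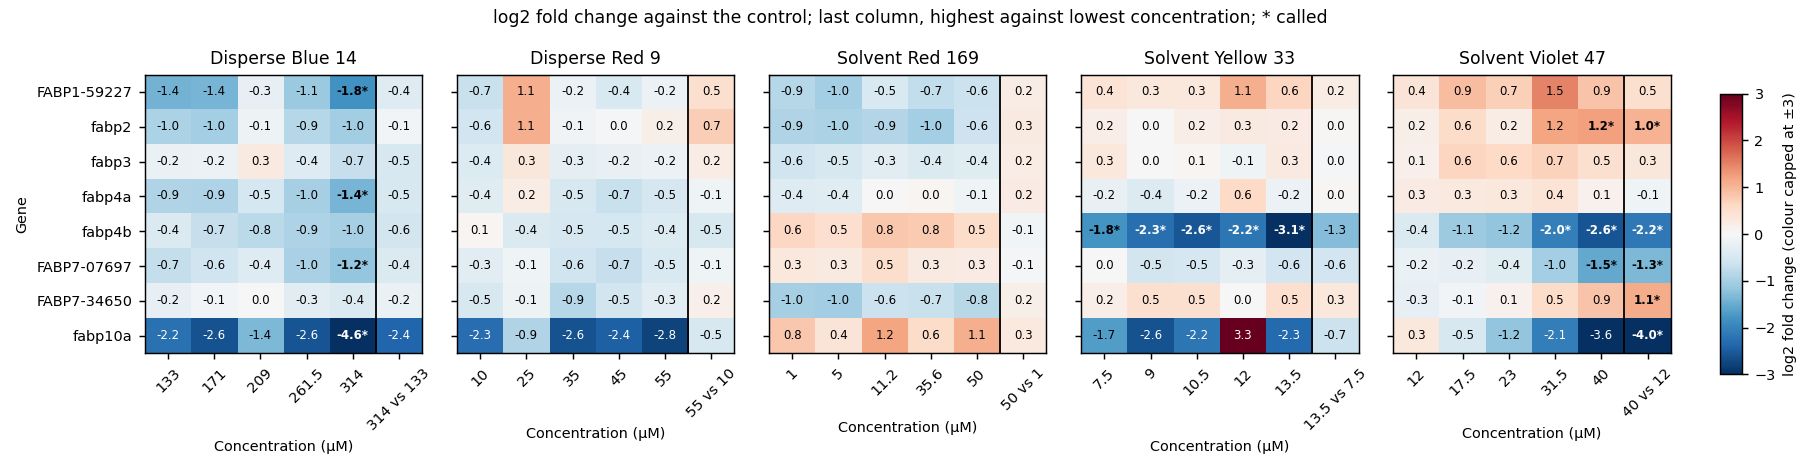
Fitted log2 fold change of the 8 tested genes (rows) for each concentration in μM (columns) against the control of its dye, with the highest against the lowest concentration in the last column of each panel. Asterisks mark calls, and the colour is capped at 3 in either direction. The calls lie in the fabp4b row of Solvent Yellow 33 except its last column, at the high concentrations of Solvent Violet 47 and in its last column, and in 4 genes at 314 μM Disperse Blue 14 against the control.

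Solvent Yellow 33 lowered fabp4b at every concentration. Mammalian FABP4, the relative for which this gene is named, carries fatty acids in fat cells and macrophages. In the 4 controls fabp4b stood at 100, 111, 118 and 103 CPM, a mean of 108 ± 8.14 (SD). At 7.5 μM the embryos held 28.5, 33.1 and 32 CPM, and at 9 μM they held 31.5, 17 and 19.5 CPM. At 10.5 μM the values were 22.9, 18.3 and 13.3 CPM. Every embryo of these groups lay below every control, and the same held at 12 μM, with 17.4, 32.9 and 22.5 CPM. The 13.5 μM embryos had the lowest group mean, with 12.9, 10.8 and 14 CPM, and overlapped the 10.5 μM embryos.

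Relative to the controls, fabp4b was 3.46-fold lower at 7.5 μM (adjusted p = 0.00349, SE 0.249 on the log2 scale). It was 4.76-fold lower at 9 μM (adjusted p = 0.000337) and 5.95-fold lower at 10.5 μM (adjusted p = 0.000249). The decrease was 4.5-fold at 12 μM (adjusted p = 0.000484) and 8.59-fold at 13.5 μM (log2 fold change −3.10, SE 0.266, adjusted p = 5.11e-05). No other member was called by the main fit in this dye, so that 1 of 8 was called at each concentration. Over all genes tested, 0.182% were called at 7.5 μM, 0.671% at 9 μM, 1.08% at 10.5 μM, 1.08% at 12 μM and 2.5% at 13.5 μM. Downward calls, the direction of fabp4b, made up 0.0967%, 0.432%, 0.734%, 0.7% and 1.62% of all genes in the same order. Including fabp4b, 1, 2, 2, 2 and 2 members had an unadjusted p under 0.05, as did 840, 1314, 1615, 3279 and 2175 of all 17577 genes. These shares of all genes come from the fit that kept 12 μM embryo 3, and shares without it were not determined. Without 12 μM embryo 3 the adjusted p-values of fabp4b were between 1.73e-07 and 9.9e-05, and its log2 fold change at 12 μM was −2.46 in place of −2.17. Its SE at 7.5 μM was then 0.202 in place of 0.249. The call at 7.5 μM was lost without 7.5 μM embryo 1 (adjusted p = 0.0517) and against the pooled controls of all dyes (log2 fold change −1.42, adjusted p = 0.312), and that at 12 μM in a fit of the 2 groups alone (adjusted p = 0.356).

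Between the highest and the lowest concentration of Solvent Yellow 33, fabp4b was 12.6 CPM against 31.2 CPM, and the groups did not overlap. The log2 fold change of 13.5 against 7.5 μM was −1.31 (SE 0.257, unadjusted p = 0.000106), but the adjusted p was 1, and 0% of all genes were called in this comparison. No member was called by the main edgeR fit. At an unadjusted p under 0.05 were 1 member and 337 of all 17577 genes. DESeq2 called 1 member, fabp4b (adjusted p = 0.0123). Without 12 μM embryo 3, the edgeR adjusted p was 0.027, and in a fit of the 2 groups alone it was 0.00482.

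**Figure D2:**
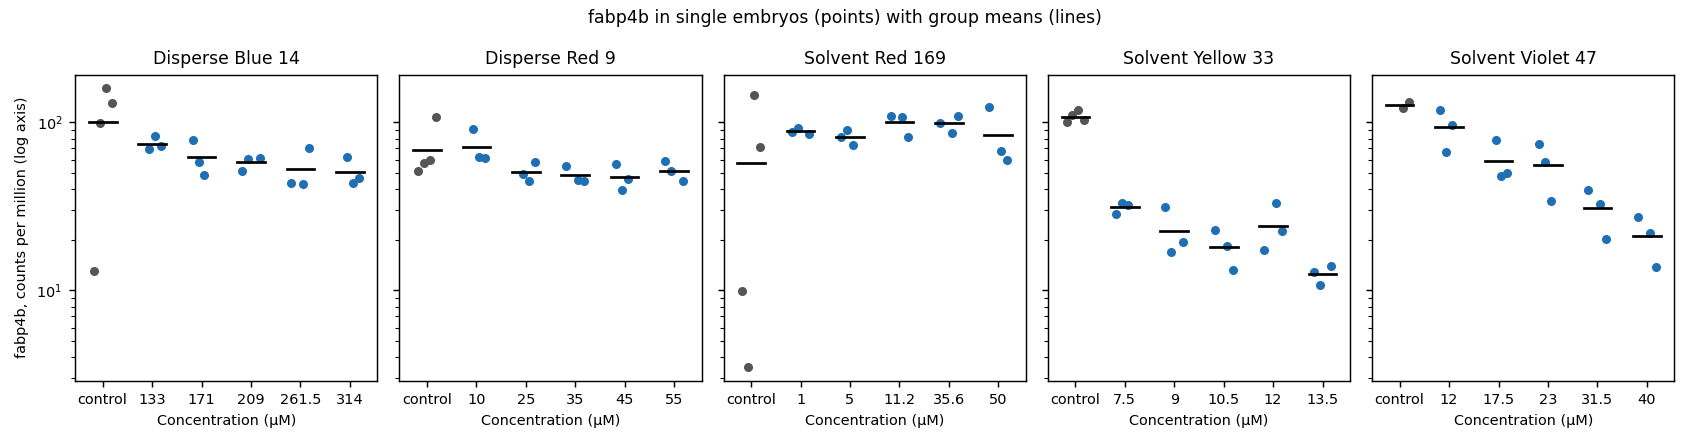
fabp4b level of each embryo in CPM (log axis) by concentration in μM, 1 panel per dye, with controls in grey, exposed embryos in blue and the mean of each group as a line. All 15 embryos exposed to Solvent Yellow 33 lie between 10.8 and 33.1 CPM, below the 4 controls at 100 to 118 CPM, and 3 control embryos of other dyes lie at 13, 9.94 and 3.52 CPM.

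Solvent Violet 47 lowered fabp4b at its 2 highest concentrations. The controls held 121 and 132 CPM. At 31.5 μM the embryos held 39.5, 32.6 and 20.2 CPM, and at 40 μM 27.5, 22 and 13.8 CPM. All of them lay below the lowest embryo at 12 μM, where the values were 118, 66.2 and 96.8 CPM. The log2 fold change was −2.04 (SE 0.368, adjusted p = 0.00837) at 31.5 μM, where 6.26% of all genes were called, 4.04% downward, and 1 of 8 members was. At 40 μM it was −2.58, a 6-fold decrease (SE 0.373, adjusted p = 0.000776), and 3 of 8 members and 15% of all genes were called. Of the members 1 was higher and 2 lower, and of all genes 6.05% were higher and 8.91% lower. Intermediate concentrations had intermediate means, 59 CPM at 17.5 μM (2.14-fold lower, adjusted p = 0.683) and 55.6 CPM at 23 μM (2.28-fold lower, adjusted p = 0.345), and were not called. At 12, 17.5 and 23 μM the main edgeR fit called 0 of 8 members and 0% of all genes. At these concentrations 0, 1 and 1 members had an unadjusted p under 0.05, as did 214, 1247 and 1647 of all 17921 genes. DESeq2 called none of the members. Since the control held only 2 embryos, the comparison of 40 with 12 μM, which does not use them, was made as well, and fabp4b was 4.44-fold lower (log2 fold change −2.15, SE 0.347, adjusted p = 0.000867). In that comparison, 5 of 8 members and 17.4% of all genes were called, 2 members and 7.24% of all genes upward and 3 members and 10.1% of all genes downward. Leaving out control 4 ended the call at 31.5 μM (adjusted p = 0.09), and no other setting that was run did. A fit of the 2 groups alone added a call at 23 μM (adjusted p = 0.0258). In the 40 μM embryos 2 of 9 tested macrophage marker genes were higher than in controls and none was lower, with sums of 137 to 205 CPM against 72 to 82.6 CPM, and no endothelium marker gene of 12 was called, with sums of 470 to 683 CPM against 603 to 610 CPM. The part of these cells in the fabp4b value was not tested.

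In the other dyes fabp4b was not called by edgeR with all embryos or by DESeq2. Under Disperse Blue 14 its mean was 74.7 CPM at 133 μM, 61.9 at 171 μM, 57.7 at 209 μM, 52.5 at 261.5 μM and 50.6 at 314 μM, where the controls held 13, 98.6, 159 and 131 CPM. The lowest of these, control 1, lay below every exposed embryo, and the other 3 controls lay above every exposed embryo. With all 4 controls, the log2 fold change at 314 μM was −0.99 (SE 0.482, adjusted p = 0.132). Without control 1 it was −1.35 (adjusted p = 0.00196), and fabp4b was also called at 171, 209 and 261.5 μM, with adjusted p-values of 0.0131, 0.0123 and 0.00337. Under Disperse Red 9 the group means lay between 47.4 and 71.8 CPM beside a control mean of 68.7 CPM, and log2 fold changes ran from −0.54 to 0.06. Under Solvent Red 169 the controls held 9.94, 3.52, 145 and 70.9 CPM, a spread wider than that of all 15 exposed embryos, which lay between 59.6 and 124 CPM.

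The other FABP4 gene, fabp4a, was called in 1 treatment group. At 314 μM Disperse Blue 14 the embryos held 49, 31 and 32.9 CPM against 48.3, 186, 71.8 and 90.1 CPM in the controls, so that the groups overlapped by the lowest control. The decrease was 2.63-fold (log2 fold change −1.40, SE 0.333, adjusted p = 0.021). In this comparison 4 of 8 members were called, all downregulated, and 15.7% of all genes were called in either direction and 8% downward. At 133, 171, 209 and 261.5 μM edgeR called 0 of 8 members, with 0.101%, 0.766%, 0.134% and 1.07% of all genes called. At an unadjusted p under 0.05 were 5, 5, 0 and 4 members, beside 2402, 3039, 1533 and 3066 of all 17887 genes. DESeq2 called 1 member, FABP7-07697 at 261.5 μM. Under Solvent Yellow 33, where fabp4b fell, fabp4a stood at 60.9 ± 5.43 CPM (SD, n = 4) in controls and 53.6 CPM at 13.5 μM (log2 fold change −0.18, adjusted p = 0.956). A single embryo departed from this, 12 μM embryo 3 with 196 CPM, next to 44.2 and 39.5 CPM in its group. At 12 μM the log2 fold change was 0.60 with that embryo (adjusted p = 0.433) and −0.56 without it (adjusted p = 0.0203), just under the fold limit. Without that embryo, fabp4a was also lower at 9 μM (log2 fold change −0.45, adjusted p = 0.0357), again under the fold limit. The value at 13.5 μM was then −0.21 (adjusted p = 0.299). At 10.5 μM it was −0.205 (adjusted p = 0.363) and at 7.5 μM −0.25 (adjusted p = 0.385). That fit did not call fabp4a.

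FABP7-07697 was called against the controls in more than 1 dye, as fabp4b was. FABP7 proteins bind polyunsaturated fatty acids in the developing nervous system. At 314 μM Disperse Blue 14 the gene stood at 602, 411 and 599 CPM, below all of the controls at 612, 1910, 1140 and 1110 CPM, although the margin to control 1 was small. The decrease was 2.22-fold (log2 fold change −1.15, SE 0.272, adjusted p = 0.0204). In Solvent Violet 47 at 40 μM the values were 493, 150 and 238 CPM against 855 and 844 CPM in the controls and 660, 904 and 658 CPM at 12 μM. None of the 40 μM embryos reached the controls or the 12 μM embryos. The gene was 2.9-fold lower than the control (log2 fold change −1.53, SE 0.337, adjusted p = 0.00687) and 2.52-fold lower than at 12 μM (log2 fold change −1.34, SE 0.311, adjusted p = 0.00765). It held 486, 388 and 376 CPM at 31.5 μM (log2 fold change −1.03, adjusted p = 0.0803). DESeq2 called this difference (adjusted p = 0.035), as did edgeR with the pooled controls (adjusted p = 0.0108), without 40 μM embryo 1 (adjusted p = 0.0112) and without 40 μM embryo 3 (adjusted p = 0.0243). The call at 40 μM was lost without control 4 (adjusted p = 0.0536) and in fits of the 2 groups alone (adjusted p = 0.0995 against control and 0.134 against 12 μM). In Solvent Yellow 33 it was 604 ± 158 CPM at 13.5 μM and 895 ± 92.1 CPM in controls (log2 fold change −0.57, adjusted p = 0.607), which a fit of the 2 groups alone called (adjusted p = 0.0171). At 12 μM it was called only without embryo 3 (log2 fold change −0.97, adjusted p = 0.0331), which had 1280 CPM next to 529 and 401 CPM.

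The second FABP7 gene, FABP7-34650, moved the other way in Solvent Violet 47. At 40 μM it held 10.1, 13.3 and 22.5 CPM, above every embryo at 12 μM with 6.34, 8.38 and 6.64 CPM. This was a 2.15-fold increase over 12 μM (SE 0.282 on the log2 scale, adjusted p = 0.013), which rested on 40 μM embryo 4 (adjusted p = 0.0886 without it) and was lost in a fit of the 2 groups alone (adjusted p = 0.0939). Of 7 settings other than a left-out embryo, that fit among them, 5 kept the call. Against the controls, at 7.49 and 9.48 CPM, the log2 fold change was 0.85 (SE 0.319, adjusted p = 0.0838) and was not called by edgeR. DESeq2 called it (adjusted p = 0.0416), as did edgeR without 40 μM embryo 1 (adjusted p = 0.0223). In the main fit, the lowest adjusted p of this gene over the 25 comparisons with controls was 0.0559, at 5 μM Solvent Red 169. There it held 9.8, 10.3 and 7.13 CPM against controls of 21.5, 32, 10.4 and 11.1 CPM.

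Neuron, lens and radial glia markers were read in the same embryos. At 40 μM Solvent Violet 47, 7 of 8 tested neuron marker genes were lower than in controls and none was higher, and their summed level was 1400 to 1740 CPM against 3330 to 3510 CPM in controls. Of 9 lens marker genes 2 were lower, with sums of 464 to 949 CPM against 1160 to 1350 CPM. Of 18 tested radial glia marker genes 5 were higher and 2 lower, with sums of 2310 to 3130 CPM against 2370 to 2430 CPM. At 314 μM Disperse Blue 14, 5 of 9 lens marker genes were lower (sums of 955 to 1180 against 1180 to 5230 CPM) and 1 of 8 neuron marker genes was higher, with neuron sums of 2940 to 3260 against 2040 to 3050 CPM. Of 18 radial glia marker genes 1 was higher and 1 lower there, with sums of 2590 to 2710 against 2030 to 2550 CPM. At 13.5 μM Solvent Yellow 33 the neuron gene SYT1 (log2 fold change −0.65, adjusted p = 0.0423) and the lens gene MIP (log2 fold change −0.59, adjusted p = 0.0157) were lower. Radial glia genes went both ways there. An SLC1A3 gene was higher (log2 fold change 0.95, adjusted p = 0.0181) and SLC1A2 was lower (log2 fold change −0.65, adjusted p = 0.0239). The neuron sums were 1900 to 2170 against 2590 to 3000 CPM in controls, the lens sums 1030 to 1100 against 1340 to 1620 CPM, and the radial glia sums 1890 to 1980 against 2090 to 2290 CPM. The part of these cell types in the FABP7 values was not tested.

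The intestinal gene fabp2 was the only member that the main edgeR fit called higher than a control. The protein binds fatty acids that enter the enterocytes of the gut. At 40 μM Solvent Violet 47 it stood at 62.6, 56.8 and 94.3 CPM, above the controls at 31.7 and 29.2 CPM and above the 12 μM embryos at 25.2, 40.9 and 37.5 CPM. The increase was 2.34-fold over the control (log2 fold change 1.23, SE 0.376, adjusted p = 0.0384) and 2.06-fold over 12 μM (log2 fold change 1.04, SE 0.327, adjusted p = 0.0351). It was 44.4, 60.3 and 104 CPM at 31.5 μM (log2 fold change 1.19, adjusted p = 0.0709), a difference that DESeq2 called (adjusted p = 0.0189), as did edgeR without 31.5 μM embryo 1 (adjusted p = 0.0353). The call against the control was lost without 40 μM embryo 4 (log2 fold change 0.97, adjusted p = 0.142), without control 3 (adjusted p = 0.17) and without control 4 (adjusted p = 0.226). It was also lost against the pooled controls of all dyes, where the log2 fold change was 0.39 (adjusted p = 0.385). The call against 12 μM was lost without 40 μM embryo 4 (adjusted p = 0.164), without 12 μM embryo 1 (adjusted p = 0.123) and without 12 μM embryo 3 (adjusted p = 0.0669). Of 7 other settings, which left out no embryo of these groups, 5 kept it. Of 15 intestine and yolk syncytial layer marker genes, 2 were higher and 3 lower at 40 μM than in controls, and their part in the fabp2 value was not tested.

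**Figure D3:**
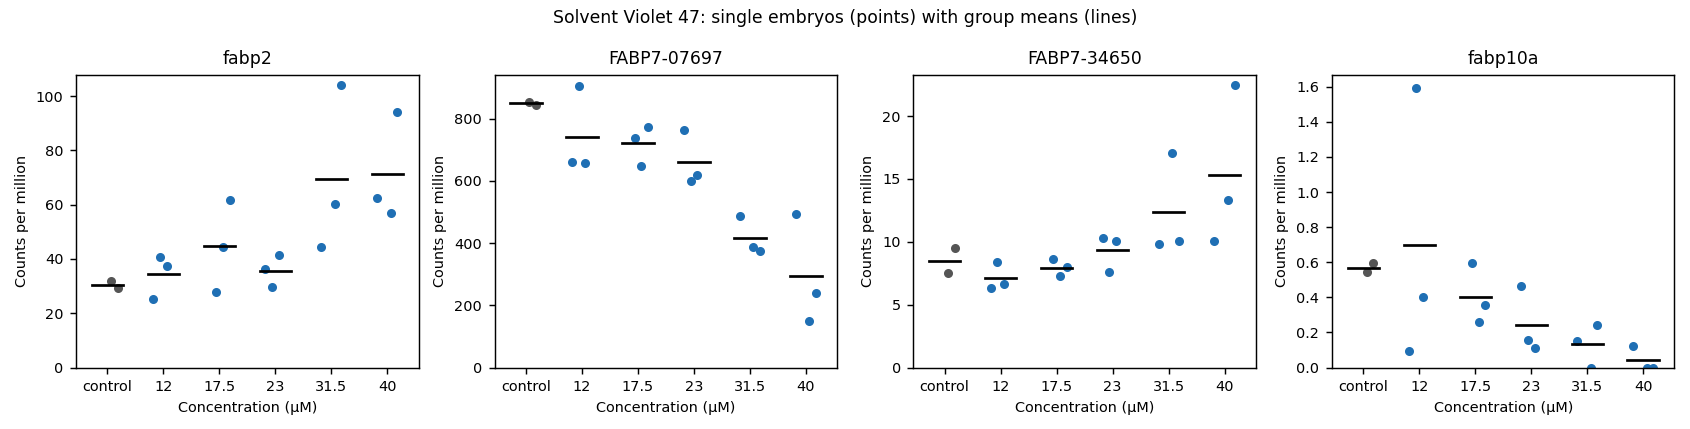
Levels of fabp2, FABP7-07697, FABP7-34650 and fabp10a in each Solvent Violet 47 embryo in CPM by concentration in μM, with group means as lines. fabp2 lies at 56.8 to 94.3 CPM at 40 μM and at 29.2 and 31.7 CPM in controls, while FABP7-07697 lies at 150 to 493 CPM and at 844 and 855 CPM.

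FABP1-59227, of the liver and intestinal type, was called at 314 μM Disperse Blue 14. The embryos held 77.2, 38.2 and 72.2 CPM, below all controls at 229, 394, 108 and 153 CPM. The decrease was 3.53-fold (log2 fold change −1.82, SE 0.551, adjusted p = 0.0373). At lower concentrations the groups overlapped with the controls, and at 209 μM an embryo reached 367 CPM. This gene varied widely within groups of other dyes as well, with 264, 1020 and 69 CPM at 25 μM Disperse Red 9 and 105, 531 and 47.9 CPM at 12 μM Solvent Yellow 33. The 1020 CPM embryo was Disperse Red 9 embryo 3, which also had the highest fabp2, 239 CPM, and the highest fabp3, 816 CPM, of all 93. In Solvent Violet 47 the direction was opposite, with 144, 109 and 377 CPM at 31.5 μM against 84.8 and 65.6 CPM, but the log2 fold change of 1.48 was not called (SE 0.805, adjusted p = 0.283).

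The hepatocyte gene fabp10a had few counts. It had a median of 0.765 CPM in controls and 0.271 CPM in exposed embryos, and no counts in 1 control and 6 exposed embryos. At 314 μM Disperse Blue 14 the embryos held 4, 0 and 2 counts against 5, 209, 31 and 41 in the controls, so that most of the control total came from control 2. The ratio of summed counts, 6 against 286 and scaled for depth, was 0.0354 with an exact 95% interval of 0.0129 to 0.078 that covers counting error only. In the fit it was called lower (log2 fold change −4.62, SE 1.09, adjusted p = 0.0204), and that fold change depends on the prior count. At 40 μM Solvent Violet 47 there were 4, 0 and 0 counts against 2, 45 and 11 at 12 μM, a ratio of 0.0554 (0.0146 to 0.15). It was called lower than at 12 μM (adjusted p = 0.0337), with overlapping groups, and the call was lost without 12 μM embryo 2 (adjusted p = 0.189), 40 μM embryo 3 (adjusted p = 0.0986) or 40 μM embryo 4 (adjusted p = 0.128). The gene kept this call in 4 of 5 settings other than a left-out embryo. Against the 2 controls, with 17 and 16 counts, it was not called by edgeR (adjusted p = 0.0698). DESeq2 called it (adjusted p = 0.0318), as did edgeR with the pooled controls of all dyes (adjusted p = 0.00997) and in 4 fits that left out 1 embryo each (adjusted p = 0.0268 to 0.0499). Of 10 tested hepatocyte marker genes 2 were lower at 40 μM than in controls, with sums of 453 to 1080 CPM against 929 to 984 CPM.

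An opposite value came from 12 μM Solvent Yellow 33 embryo 3, where fabp10a had 79 counts or 19.4 CPM, the highest of all 93 embryos, while the rest of its group held 2 and 4 counts. The log2 fold change at 12 μM was 3.32 with that embryo (adjusted p = 0.203) and −2.62 without it (adjusted p = 0.157). With that embryo, edgeR called fabp10a higher at 12 μM against the pooled controls of all dyes (log2 fold change 2.61, adjusted p = 0.0126). Fits of the 2 groups alone called it lower at 9 μM (log2 fold change −2.64, adjusted p = 0.0279) and 13.5 μM (log2 fold change −2.36, adjusted p = 0.0139). In Disperse Red 9 the controls held 1.47 to 2.55 CPM and every exposed embryo but 1, at 1.91 CPM in the 25 μM group, lay below them. Log2 fold changes were between −2.77 and −0.91 in this dye, and none was called by the main edgeR fit. DESeq2 called those at 35, 45 and 55 μM (adjusted p = 0.0466, 0.0335 and 0.0151). An edgeR fit of the 2 groups alone called that at 55 μM (adjusted p = 0.0191). Without 25 μM embryo 4, edgeR called those at 45 and 55 μM (adjusted p = 0.0323 and 0.0293).

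The 4 calls at 314 μM Disperse Blue 14 depended on single embryos and on the samples fitted. Each was lost in a fit of the 2 groups alone (adjusted p between 0.161 and 0.171), without 314 μM embryo 3 (adjusted p between 0.121 and 0.181) and without 314 μM embryo 4 (adjusted p between 0.0552 and 0.0883). That of FABP1-59227 was also lost without control 2 (adjusted p = 0.0944). Against the pooled controls of all dyes, fabp4a alone was called (log2 fold change −1.22). Without control 1, the calls of this dye rose from 4 to 15 and included FABP7-07697 from 133 μM on except at 209 μM, and fabp4a and fabp10a at 171 and 261.5 μM. The share of all genes called in that fit was not determined. DESeq2 called FABP7-07697 at 261.5 μM (adjusted p = 0.0167) and a decrease of fabp2 at 314 μM (log2 fold change −1.05, adjusted p = 0.0304). The main edgeR fit did not call this decrease of fabp2 (adjusted p = 0.0623). Between 314 and 133 μM no member was called by edgeR or DESeq2, none was at an unadjusted p under 0.05, and 0% of all genes were called. Hepatocyte markers moved in the same groups, with 3 of 9 tested genes lower at 314 μM and sums of 611 to 909 against 1090 to 2290 CPM, and 6 of 12 endothelium marker genes were lower (sums of 381 to 481 against 401 to 555 CPM). Their part in the values of fabp10a, FABP1-59227 and fabp4a was not tested.

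**Figure D4:**
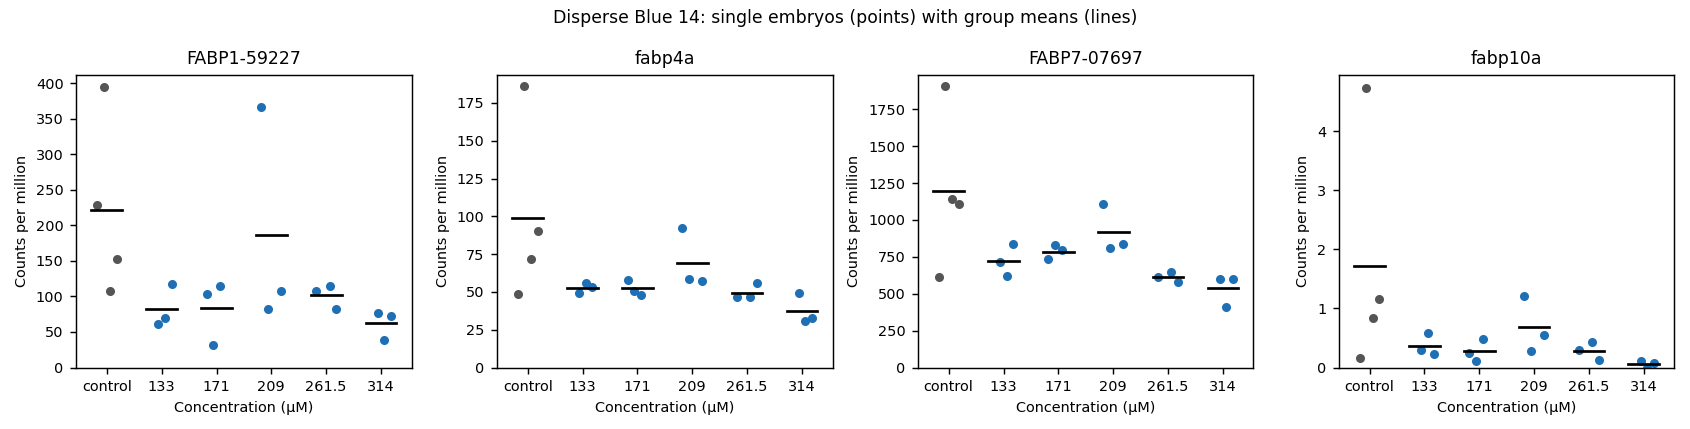
Levels of FABP1-59227, fabp4a, FABP7-07697 and fabp10a in each Disperse Blue 14 embryo in CPM by concentration in μM, with group means as lines. Control 2 is the highest point of all 4 panels, at 394, 186, 1910 and 4.72 CPM, and the 314 μM embryos lie at the lower end of each.

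The heart and muscle gene fabp3 had the narrowest range of fold changes of the 8 tested members. Its level lay between 193 and 503 CPM in the 18 controls and between 147 and 816 CPM in the exposed embryos. Its log2 fold changes over the 25 comparisons ran from −0.69 at 314 μM Disperse Blue 14 (adjusted p = 0.0676) to 0.68 at 31.5 μM Solvent Violet 47 (adjusted p = 0.241). DESeq2 called the decrease at 314 μM (adjusted p = 0.0411), and a fit of the 2 groups alone called an increase at 23 μM Solvent Violet 47 (log2 fold change 0.62, adjusted p = 0.0426). Muscle marker genes were also lower at 314 μM, 2 of 9, and none was higher.

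Neither Disperse Red 9 nor Solvent Red 169 gave a call in the main edgeR fit. In Disperse Red 9 this fit called 0 of 8 members at each concentration. Of all genes, 0% were called at 10 and 25 μM, 0.0951% at 35 μM, 1.41% at 45 μM and 0.683% at 55 μM. Unadjusted p-values under 0.05 were seen for 1, 1, 3, 3 and 1 members from the lowest to the highest concentration. Over all 17869 genes they were seen for 867, 1250, 1429, 2731 and 2483. DESeq2 made 3 calls, all of fabp10a. Against the pooled controls of all dyes, edgeR called fabp2 higher at 25 μM (log2 fold change 1.21, adjusted p = 0.029). In Solvent Red 169 the shares of all genes were 3.73% at 1 μM, 6.26% at 5 μM, 0% at 11.2 and 35.6 μM and 3.25% at 50 μM. There, 3, 3, 1, 2 and 2 members had an unadjusted p under 0.05, as did 5981, 5900, 4304, 4209 and 5434 of all 17840 genes. DESeq2 made 4 calls, of fabp2 and FABP7-34650 at 1 and 5 μM. Highest against lowest concentration, no member was called in either dye by edgeR or DESeq2 (0 of 8 at an unadjusted p under 0.05 and 0% of all genes called in each).

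The Solvent Red 169 values depended on their controls. Controls 1 and 2 held 94.4 and 128 CPM of fabp2 and controls 3 and 4 held 48.7 and 62.5 CPM. For FABP7-34650 the values were 21.5 and 32 against 10.4 and 11.1 CPM, and for FABP7-07697 349 and 372 against 1060 and 895 CPM. On each of these genes, and on fabp4b, controls 1 and 2 lay apart from the other pair, and controls 3 and 4 lay within or near the range of the exposed embryos. Without control 3, where the share of all genes called was not determined, the calls rose from 0 to 13. Among them, fabp2 and FABP7-34650 were lower at all 5 concentrations, and FABP7-07697 was higher at 11.2 μM (log2 fold change 0.84, adjusted p = 0.0424). Without control 4 the calls rose to 4. With controls 1 and 2 left out together, a setting chosen after seeing the data, there were 0 calls and the lowest adjusted p of a member was 0.54. The log2 fold change of fabp4b at 5 μM was then −0.40 in place of 0.51.

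Control embryos of the 5 dyes were compared with each other, since each dye had only its own control. Over all genes 2.09% differed among the 5 control groups, and 0 of 8 members did by edgeR's F test. Members at an unadjusted p under 0.05 were FABP1-59227 (0.0219), fabp2 (0.0044), fabp3 (0.00669) and FABP7-34650 (0.0117), beside 4862 of all 18170 genes. DESeq2's likelihood ratio test called 4 members, and its share of all genes was not determined. For fabp2 the control means ran from 30.5 CPM in Solvent Violet 47 to 82 CPM in Solvent Red 169, scaled over the 18 controls (adjusted p = 0.0819). For fabp3 they ran from 199 to 379 CPM in the same dyes (adjusted p = 0.0955). The control mean of fabp4b ran from 56.1 CPM in Solvent Red 169 to 127 CPM in Solvent Violet 47 (adjusted p = 0.686). Without Disperse Blue 14 control 2, 4 members were called, and without Solvent Red 169 control 3, 3 were. Shares of all genes called in these fits were not determined.

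**Figure D5:**
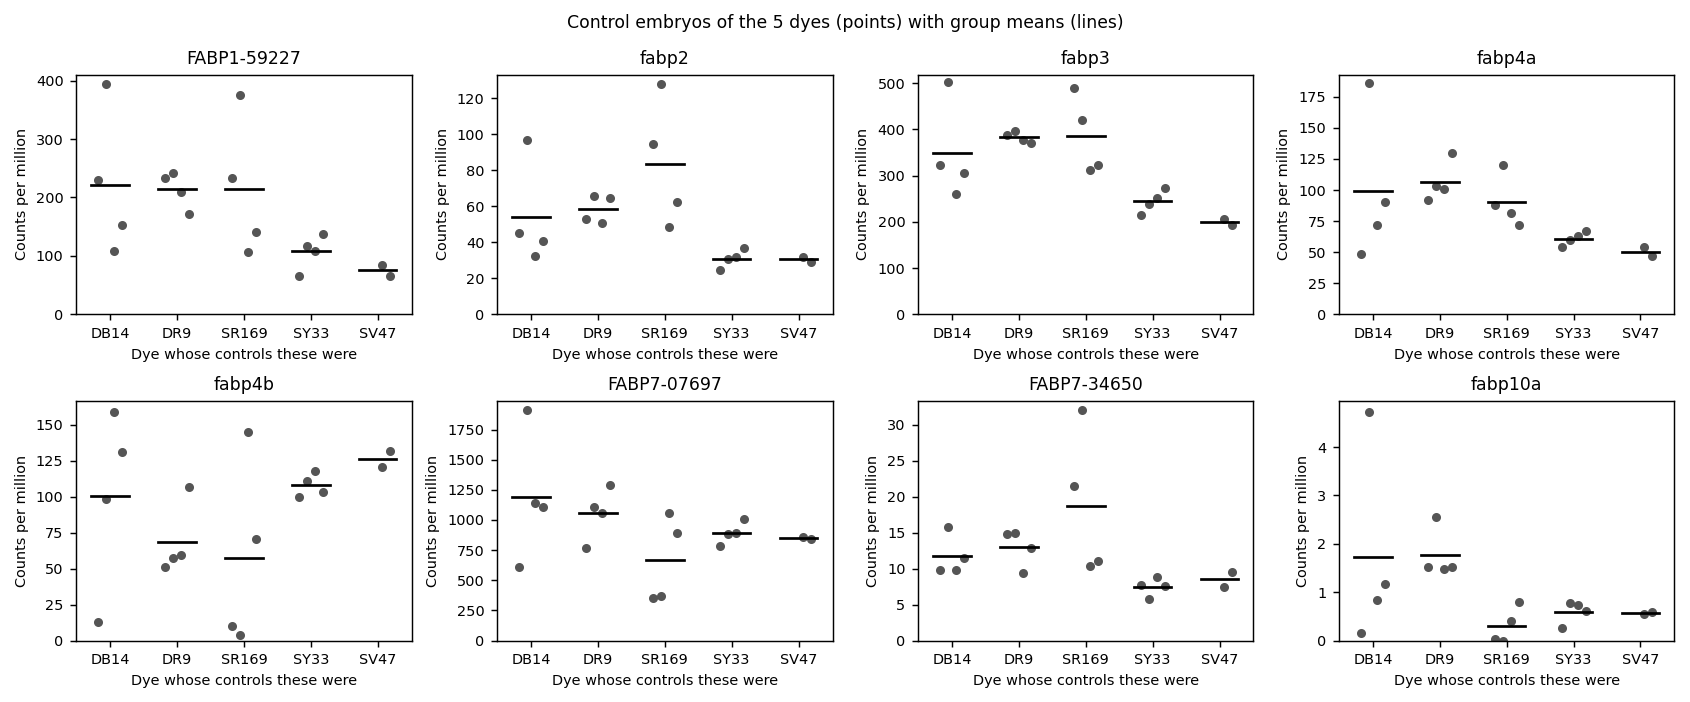
Levels of the 8 tested genes in the control embryos of each dye in CPM, with group means as lines, where DB14 is Disperse Blue 14, SR169 is Solvent Red 169, DR9 is Disperse Red 9, SV47 is Solvent Violet 47 and SY33 is Solvent Yellow 33. Solvent Yellow 33 controls lie close together, with fabp4b at 100 to 118 CPM, while those of Solvent Red 169 fall between 3.52 and 145 CPM.

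Across the 93 embryos the members did not vary as a single group. Correlations are of log2 CPM and are descriptions, since the embryos share groups, dyes and depth. FABP1-59227 and fabp3 had r = 0.85 (Spearman's rho 0.86), and FABP1-59227 and fabp2 had r = 0.77. FABP7-07697 and fabp10a had r = 0.78, with 0.69 to 0.92 within the dyes. The pair of FABP7 genes had r = −0.09, and within the dyes their r ran from −0.72 to 0.78. For fabp4a and fabp4b r was 0.16. The gene most like each member, outside the family, was the folate enzyme gene FTCD for FABP1-59227 (r = 0.94), GAMT of creatine synthesis for fabp2 (r = 0.85), and RAN, a GTPase of nuclear transport, for fabp3 (r = 0.94). It was GPD1, glycerol-3-phosphate dehydrogenase, for fabp4a (r = 0.86), DPP6 for fabp4b (r = 0.89), the γ-crystallin gene crygm2d5 for FABP7-07697 (r = 0.94), FBL, which encodes fibrillarin, for FABP7-34650 (r = 0.72, rho 0.59), and fgfbp2b for fabp10a (r = 0.86).

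The genes that work with fatty acid binding proteins were described from lists of uptake and activation, PPAR and RXR receptors, fatty acid oxidation, triglyceride storage, fatty acid synthesis, and other intracellular lipid binding proteins. Under Solvent Yellow 33 at 13.5 μM, where fabp4b was lowest, only GPAM was called among them (log2 fold change −0.72, SE 0.178, adjusted p = 0.0396), which encodes an acyltransferase of triglyceride synthesis, 1 of 13 tested genes of its list, whose median was −0.26 beside 0.04 over all genes. The medians of the other lists lay between −0.23 and 0.09. In the same embryos 1 of 12 endothelium marker genes was lower, plvapb, named after its value was seen (log2 fold change −1.19), and it was lower at every Solvent Yellow 33 concentration. The sum over the endothelium markers was 362 to 413 CPM at 13.5 μM and 459 to 529 CPM in controls, that over macrophage markers was 60.6 to 99.2 CPM and 62.2 to 90.9 CPM, with 1 of 9 macrophage genes higher, ctss2.1 (log2 fold change 2.15, adjusted p = 0.0181), and their part in the fabp4b value was not tested.

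At 40 μM Solvent Violet 47, 3 of 13 triglyceride genes were lower and 1 was higher. Lower were GPAM (log2 fold change −1.74, adjusted p = 0.00109), the lipoprotein lipase gene LPL (log2 fold change −1.50, adjusted p = 0.00405) and 1 of the DGAT1 genes (log2 fold change −0.86, adjusted p = 0.0196). The median of the list was −0.03, beside 0.04 over all genes. The fatty acid transporter gene CD36 was the only one of 15 uptake genes that changed (log2 fold change −0.90, adjusted p = 0.0459), and of 17 oxidation genes CPT1B alone was lower (log2 fold change −0.79, adjusted p = 0.037). The medians of these lists were −0.12 and −0.10. None of 9 receptor genes was called (median −0.22), and 1 of 11 synthesis genes was lower (median 0.11). Among 12 other lipid binding proteins, fabp1b.2, a further FABP1 gene, was higher with 1.87 against 0.367 CPM (log2 fold change 2.33, SE 0.561, adjusted p = 0.0116). RBP2, a carrier of retinol, and 1 of the CRABP1 genes, which bind retinoic acid, were lower (log2 fold changes of −1.76 and −3.10), and the median of that list was 0.05.

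At 314 μM Disperse Blue 14, 4 of 17 fatty acid oxidation genes were lower and none was higher (median log2 fold change −0.53, −0.01 over all genes). Among them were CPT1B (log2 fold change −0.64, adjusted p = 0.0367), which loads fatty acids for import into mitochondria, and ACADM (log2 fold change −0.85, adjusted p = 0.0368). The receptor gene PPARA held 0.106 against 0.435 CPM (log2 fold change −2.01, adjusted p = 0.045). Its level at 314 μM was near the floor of 3 counts, which is 0.104 CPM there, so this fold change is uncertain. PPARA and its partner PPARGC1A (log2 fold change −1.50, adjusted p = 0.0379) were the 2 of 9 receptor genes that were lower (median −0.89). In contrast, 3 of 13 triglyceride genes were higher, with the lipase gene PNPLA2 at 7.77 against 2.95 CPM (log2 fold change 1.40, adjusted p = 0.0134) and mgll at 132 against 66.4 CPM (log2 fold change 0.99, adjusted p = 0.0267). LPIN1 was the only one lower (log2 fold change −1.68, adjusted p = 0.0128), and the median was 0.56. Of 13 other lipid binding proteins 4 were lower and 1 higher, led by rbp7a (log2 fold change −1.49, adjusted p = 0.00682), with a median of −0.64. Of 15 uptake genes 2 were higher and 1 lower (median −0.24), and of 11 synthesis genes 1 was higher (median 0.01).

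In Solvent Red 169 the main edgeR fit called none of the members, and DESeq2 called fabp2 and FABP7-34650 lower at 1 and 5 μM. Triglyceride genes were higher at 3 concentrations of this dye, 2 of 13 at 1 μM, 3 at 5 μM and 2 at 50 μM, and none was lower. Of all genes, 3.73%, 6.26% and 3.25% were called at these concentrations in either direction. The lipid droplet gene plin6 rose at each of these, with 8.33 CPM at 5 μM against 2.38 CPM in controls (log2 fold change 1.80, SE 0.269, adjusted p = 0.00626). Of the other lipid binding proteins, CRABP2 was higher at 5 μM, with 103 against 65.5 CPM (log2 fold change 0.65, SE 0.14, adjusted p = 0.0182). The level of fabp1b.2 was lower at 5 μM, with 0.491 CPM against 2.55 ± 2 CPM (SD) in controls (log2 fold change −2.36, SE 0.647, adjusted p = 0.0406). How the calls of these list genes depend on single controls of this dye was not tested. In Disperse Red 9 no gene of these 6 lists was called at any concentration.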

How the data were processed

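Poly-A RNA of 93 single embryos was sequenced by the authors, who deposited estimated counts per gene made with Trim Galore 0.6.5, Salmon 1.1.0 and tximport on Ensembl annotation of zebrafish, and who used edgeR 3.28.1. Deposited tables of log2 CPM carry no gene identifiers and were not used. No per-embryo column of the count table was left out (0). Of the count values, 62.16% were whole, and the estimated counts were rounded.

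Groups came from the labels. Embryos of a dye were fitted together in edgeR 4.0.16 (R 4.3.3, limma 3.58.1) after filterByExpr and TMM scaling, with 1 quasi-likelihood F test per concentration against the control, 1 for the highest against the lowest, and 1 across the controls of all dyes. SE is the log2 fold change divided by the square root of F. Tests were adjusted over all genes tested, 17577 to 17921 per dye. The main fit of each dye and the test across the controls were tested on simulated data, and the alternative fits were not. All 9 members are accounted for. Named beside them are the gene most correlated with each member over all embryos and up to 3 called genes of a list, those with the lowest adjusted p. The members, gene lists and marker lists were chosen with earlier results of these data known. A list symbol absent from the table was matched without its paralogue letter.

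Alternatives were DESeq2 1.42.0, other filters and scaling, 2 groups only, pooled controls, a replicate block and each embryo left out. Their shares of all genes called were not determined. Leaving out Solvent Red 169 controls 1 and 2 together was added after seeing the data. No 2 embryos agreed within sampling noise. Counting intervals cover counting error only.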

Additional observations from a re-analysis of the deposited data

Results flagged for a closer look

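In the sets of 4 control embryos, 4 of 36 combinations of gene and dye had an embryo whose gap to the nearest of the others exceeded Dixon's critical value as a share of the range. Chance flags about 1 in 20 such sets of normally distributed values. That rate does not apply to FABP1-19357, where a single embryo above 0 among controls at 0 is always flagged. Control embryo 4 of Disperse Red 9 held 107 CPM of fabp4b, and the others held 51.2 to 59.5 CPM. Control embryo 2 of the same dye held 2.55 CPM of fabp10a next to 1.47 to 1.52 CPM. For FABP1-19357, Disperse Red 9 control embryo 3 had 0.0982 CPM and Solvent Yellow 33 control embryo 2 had 0.0448 CPM, while the other controls of these dyes were at 0. These were 4 and 2 counts.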

How the results depend on the processing

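Of 136 alternatives to the 18 calls, other than leaving out an embryo, 118 kept the call, 18 lost it and 0 reversed it. Called tests over the concentrations of a dye, by edgeR with all groups, numbered 4 in Disperse Blue 14, 0 in Disperse Red 9, 0 in Solvent Red 169, 5 in Solvent Yellow 33 and 4 in Solvent Violet 47. DESeq2 gave 7, 3, 4, 5 and 8 of them, fits of the 2 groups alone 0, 1, 0, 7 and 5, and the pooled controls 1, 1, 0, 5 and 5, in the same order. Testing only genes with no embryo under 10 counts gave 2 in Solvent Red 169. Leaving out each embryo in turn gave 0 to 15, 0 to 2, 0 to 13, 4 to 6 and 1 to 7. Disperse Red 9 gained its 2 without 25 μM embryo 4, both for fabp10a, and Solvent Violet 47 kept 1 without control 4 and had 7 without 40 μM embryo 1. Between the highest and the lowest concentration, Solvent Yellow 33 had 0 calls, and 1 each with DESeq2 and with the 2 groups alone, 0 to 1 with an embryo left out. Solvent Violet 47 had 5, but 1 with the 2 groups alone and 2 to 5 with an embryo left out, 2 of them without 40 μM embryo 4. Among the controls of the 5 dyes, 0 members differed by edgeR, 4 by DESeq2 and 0 to 4 with a control left out. The alternative fits were kept for the members only, so it is not known whether calls over all genes changed alike. The cause of these changes was not tested.

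With the replicate number as a block, calls numbered 3 in Disperse Blue 14, 2 in Solvent Red 169, 6 in Solvent Violet 47, and 2 between 40 and 12 μM Solvent Violet 47. The numbers showed no clear pairing of the embryos. Deviations of embryos with the same number had median correlations of −0.067 to 0.004 by dye, beside −0.003 to 0.028 for different numbers. Single correlations of the same number lay between −0.68 and 0.68, and 12 of 36 such pairs in Disperse Blue 14 were over 0.1. Whether embryos with the same number shared a clutch or plate cannot be told from these values.

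With 3 embryos per group and 2 Solvent Violet 47 controls, single embryos decided many calls. Counts of fabp10a and FABP1-19357 limit both genes.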
